A study of Mus musculus with 16 samples.

Results

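The miR-99/100 and miR-125 families were followed through mouse skin that carried or lacked the nuclear receptor PPARβ/δ, with and without chronic UV. Their members were chosen by name: mmu-miR-99a, mmu-miR-99b, mmu-miR-100, mmu-miR-125a-5p and mmu-miR-125b-5p, which are 5 of the 577 miRNAs on the array. All samples were dorsal skin of hairless mice on the mixed SKH1-C57/Bl6-SV129 background, and according to the methods the mice were young adult females, with both genotypes from the same litters. Per the labels the groups were WT(Ppard+/+) and KO(Ppard-/-) skin with no UV, and WT(Ppard+/+) and KO(Ppard-/-) skin exposed to 70 mJ/cm2 of UVB on 3 occasions a week over 12 weeks. Below, WT UV and KO UV stand for the irradiated groups and WT no UV and KO no UV for the others; each held 4 arrays, 16 in all. The non-irradiated controls were age-matched and sham-handled, and the irradiated skin was taken free of lesions. The deletion is present in every cell of the KO mouse, and whole skin mixes epidermis, dermis and other tissue, so fewer cells of a type and less of a miRNA per cell cannot be told apart.

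MiRNAs silence mRNAs by pairing with them, mainly through the seed, bases 2 to 8 of the mature strand, so miRNAs with the same seed form a family with overlapping targets. The miR-99/100 family is known for repressing MTOR and IGF1R, and the miR-125 family descends from lin-4, the first miRNA to be described. MiR-125b is known in skin for holding hair follicle stem cells back from differentiation. In mammals the families are encoded together: a miR-99/100 gene, a let-7 gene and a miR-125 gene lie one after the other on the same strand.

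The mature sequences carry the grouping by family and show how alike the targets of the probes are. They are given 5′ to 3′ from RefSeq (GRCm38.p6), with the seed in capitals, and miR-351 is added because it was the only other array miRNA found to share a seed with a member, among the 436 of 577 array names that matched an entry.
mmu-miR-99a: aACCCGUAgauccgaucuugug
mmu-miR-99b: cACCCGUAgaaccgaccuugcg
mmu-miR-100: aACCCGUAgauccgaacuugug
mmu-miR-125a-5p: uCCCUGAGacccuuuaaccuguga
mmu-miR-125b-5p: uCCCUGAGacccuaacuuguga
mmu-miR-351: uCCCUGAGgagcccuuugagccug
Counted from 1 at the 5′ end, miR-100 and miR-99a differ at 1 of 22 bases (A16U from miR-100 to miR-99a). MiR-99b differs from miR-99a at 4 bases (A1C, U11A, U16C and U21C from miR-99a to miR-99b), none of them in the seed. MiR-125a-5p has 24 bases and miR-125b-5p 22, and they share the first 13 and the last 5.

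On GRCm38.p6 the genes lie in 3 clusters, each on the plus strand. Mir100 (chromosome 9, 41531425 to 41531504), Mirlet7a-2 (41536716 to 41536811) and Mir125b-1 (41581926 to 41582002) span 50.58 kb. Mir99a (chromosome 16, 77598936 to 77599000), Mirlet7c-1 (77599657 to 77599750) and Mir125b-2 (mature strands at 77646279 to 77646339) span 47.4 kb. Mir99b (chromosome 17, mature strands at 17830194 to 17830253), Mirlet7e (17830352 to 17830444) and Mir125a (17830812 to 17830879) lie within 0.69 kb. Mature miR-125b-5p is the same from both of its genes, so its signal sums the chromosome 9 and chromosome 16 copies.

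Each array gave an intensity per miRNA, and the values below are quantile-normalized signals on the log2 scale unless another scale is named. The summed signal per array ranged from 170979 to 395200 units. Each slide held 1 irradiation state, so the UV effect and the slide cannot be told apart. After UV row 1 of the slide was all WT and row 2 all KO. Arrays of the irradiated slide detected 184 to 206 miRNAs, and those of the other slide 216 to 266. Their mean spot background was 119 to 130 and 62.8 to 80.8 units in the same order. The quantile normalization ran across both slides. Of the keratinocyte list (miR-203, miR-205 and the miR-200 family), 7 of 7 were detected in every group. So were the 4 skeletal muscle, 5 leukocyte and 6 fibroblast and vessel miRNAs on the array. Detection alone thus does not settle the skin label. Signals of different miRNAs come from different probes and are not ranked against each other.

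All 5 members were detected on all 16 arrays. From the lowest to the highest array the normalized signal of miR-99a differed by 1.42-fold, of miR-99b by 1.51-fold, of miR-100 by 1.56-fold, of miR-125a-5p by 1.74-fold and of miR-125b-5p by 1.36-fold. Before normalization the same ranges were 2.10-fold to 2.49-fold. The SD within groups, pooled over the 4 groups, lay between 0.120 for miR-125b-5p and 0.199 for miR-125a-5p, against a median of 0.201 over the 167 miRNAs detected on all arrays. The error that the scanner software assigned to a single member's value was 7.57% to 9.35% of the signal.

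**Figure D1:**
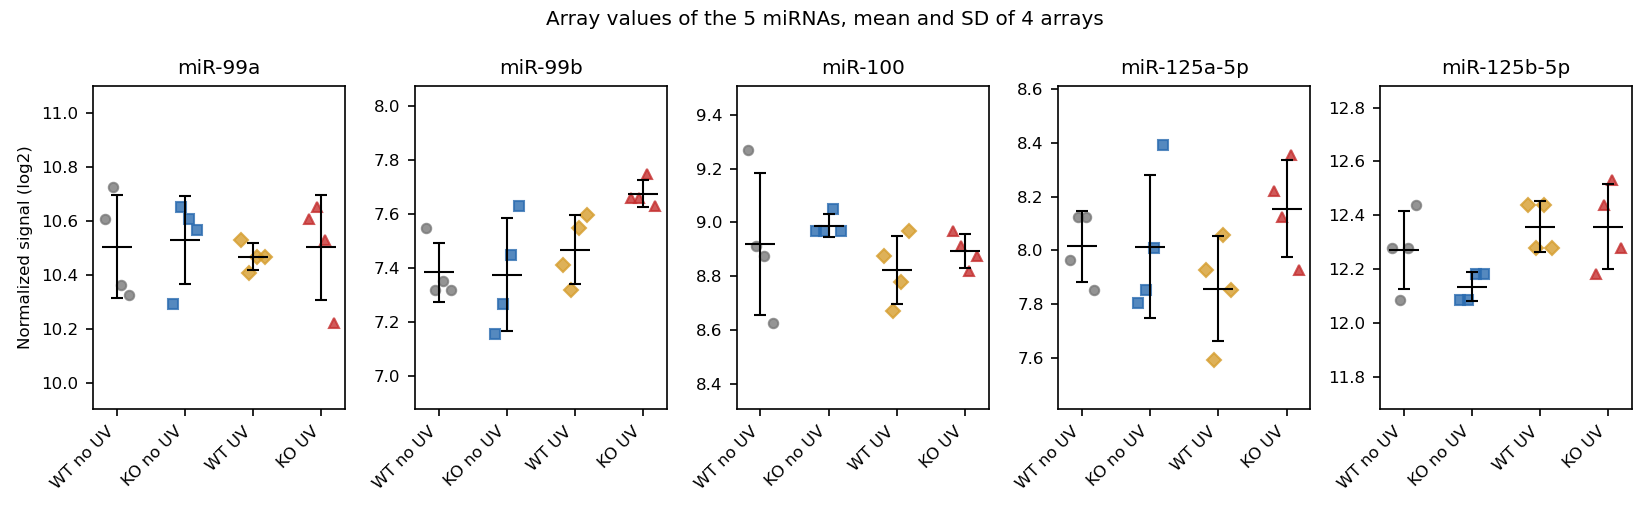
Normalized signal (log2) of each member on every array, by group, with the mean and SD of 4 arrays as black bars; each panel spans 1.2 log2 units. The KO UV arrays of miR-99b, at 7.63 to 7.75, sit above all 4 WT UV arrays.

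MiR-99b, of the chromosome 17 cluster, was the member that differed most clearly. Its log2 signal was 7.55, 7.32, 7.35 and 7.32 on WT no UV arrays 1 to 4, and 7.15, 7.27, 7.45 and 7.63 on the KO no UV arrays. After UV it was 7.41, 7.32, 7.55 and 7.59 on the WT arrays and 7.66, 7.66, 7.75 and 7.63 on the KO arrays. The irradiated KO arrays were all high and close together, and of the KO no UV arrays replicate 4 reached the lowest of them. MiR-99b rose with UV in KO by 0.30 (SE 0.094, 95% confidence interval 0.10 to 0.50; a 1.23-fold rise), with a limma adjusted p of 0.0329. An exact permutation test, two-sided, gave p = 0.0571, with 15 of 16 pairs of arrays higher after UV and 1 tied. This was 1 call among the 5 members in that contrast, where 29.8% of the 228 tested miRNAs were called and 18.4% were called higher, so the share among the members was near the background. In WT the UV difference was 0.08 (interval -0.12 to 0.29, limma adjusted p = 0.583), and the interaction (UV effect of WT less the UV effect of KO) was -0.22 (interval -0.50 to 0.07, limma adjusted p = 0.583), so a different response of the genotypes was not shown.

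The rise of miR-99b in KO depended on the processing. The call was lost under 13 of the 17 alternatives that kept every array. Among them the limma adjusted p was 0.0506 in the authors' series table and 0.303 with quantiles taken within each slide, and with no normalization the difference itself was -0.26. It also lost its call without KO UV replicate 1, 2 or 3 or KO no UV replicate 1, 2 or 3, at limma adjusted p-values of 0.0524 to 0.0927. Without KO UV replicate 4 or KO no UV replicate 4 the call held, at 0.0412 and 0.0081.

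Between the genotypes after UV, miR-99b was 0.21 higher in KO (interval 0.00 to 0.41). In that direction lay 16 of 16 pairs of KO and WT arrays. How many of all tested miRNAs separated these groups as fully was not counted. The exact permutation p was 0.0286, the smallest that 4 against 4 arrays can give, and the limma adjusted p was 0.540, so the difference failed the correction. Each array was also scaled to its 75th percentile, taken over miRNAs that all arrays detected. The signal was then 182, 135, 181 and 182 units in WT UV and 184, 210, 214 and 193 units in KO UV, still without overlap. The nearest of these, 182 in WT UV replicate 4 and 184 in KO UV replicate 1, had software errors of 8.21% and 8.82%. They thus lay closer together than those errors. With slide row as a covariate, whose effect only the non-irradiated slide can separate from genotype, the log2 difference was 0.09 (limma adjusted p = 1). Without normalization the 2 groups overlapped, at 153 to 227 and 161 to 187 units, and the difference was -0.07. Without UV the genotypes differed by -0.01 (interval -0.21 to 0.20), a difference without a settled sign.

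MiR-125a-5p, encoded 3′ of miR-99b in the same cluster, had log2 signals of 7.97, 8.12, 8.12 and 7.85 in WT no UV and 7.80, 7.85, 8.01 and 8.39 in KO no UV. After UV they were 7.93, 7.59, 8.06 and 7.85 in WT and 8.22, 8.12, 8.35 and 7.93 in KO. KO UV was the highest group by its mean, 8.16 ± 0.18 (SD, n = 4) against 7.86 ± 0.20 in WT UV, and 14 of 16 pairs of arrays showed that direction. The difference of 0.30 (SE 0.14, interval 0.00 to 0.59) had a limma adjusted p of 0.540 and an exact permutation p of 0.0857, and so failed the test. The UV difference was -0.16 in WT and 0.14 in KO, with limma adjusted p-values of 0.488 and 0.454, and with an interaction of -0.30 (interval -0.72 to 0.12, adjusted p = 0.583). With slide row as a covariate, KO minus WT after UV was 0.14 and the interaction -0.14. Without UV the genotypes differed by 0.00 on average, with an interval of -0.30 to 0.29.

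Let-7e, whose gene lies between those of miR-99b and miR-125a, belongs to the let-7 family, known as a brake on growth and a marker of differentiated cells. It had log2 signals of 9.95, 9.65, 9.80 and 9.60 in WT no UV and 9.65, 9.69, 9.77 and 9.88 in KO no UV. The irradiated arrays gave 9.85, 9.85, 9.80 and 9.69 in WT and 10.29, 10.02, 10.09 and 9.80 in KO, so 3 of 4 KO UV arrays lay above every other array. Let-7e rose with UV in KO by 0.30 (limma adjusted p = 0.0386, exact permutation p = 0.0571), with 15 of 16 pairs of arrays in that direction. It was 0.25 higher in KO than in WT after UV, which failed the test (limma adjusted p = 0.408, exact permutation p = 0.114). That difference passed with no detection filter, where 359 of all 577 miRNAs were called in the same contrast. Its rise also depended on single arrays: it lost its call without KO UV replicate 1, 2 or 3 or KO no UV replicate 1, 2 or 3, at adjusted p-values of 0.0669 to 0.108, and was -0.12 with no normalization. Of the 15 alternatives that kept every array, chosen for let-7e after the data were seen, 8 ended its call. For the call of let-7e the background was 18.4% of all tested miRNAs called higher with UV in KO. MiR-99b, miR-125a-5p and let-7e each had their highest group mean in KO UV. How many of all tested miRNAs had theirs there was not counted.

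**Figure D2:**
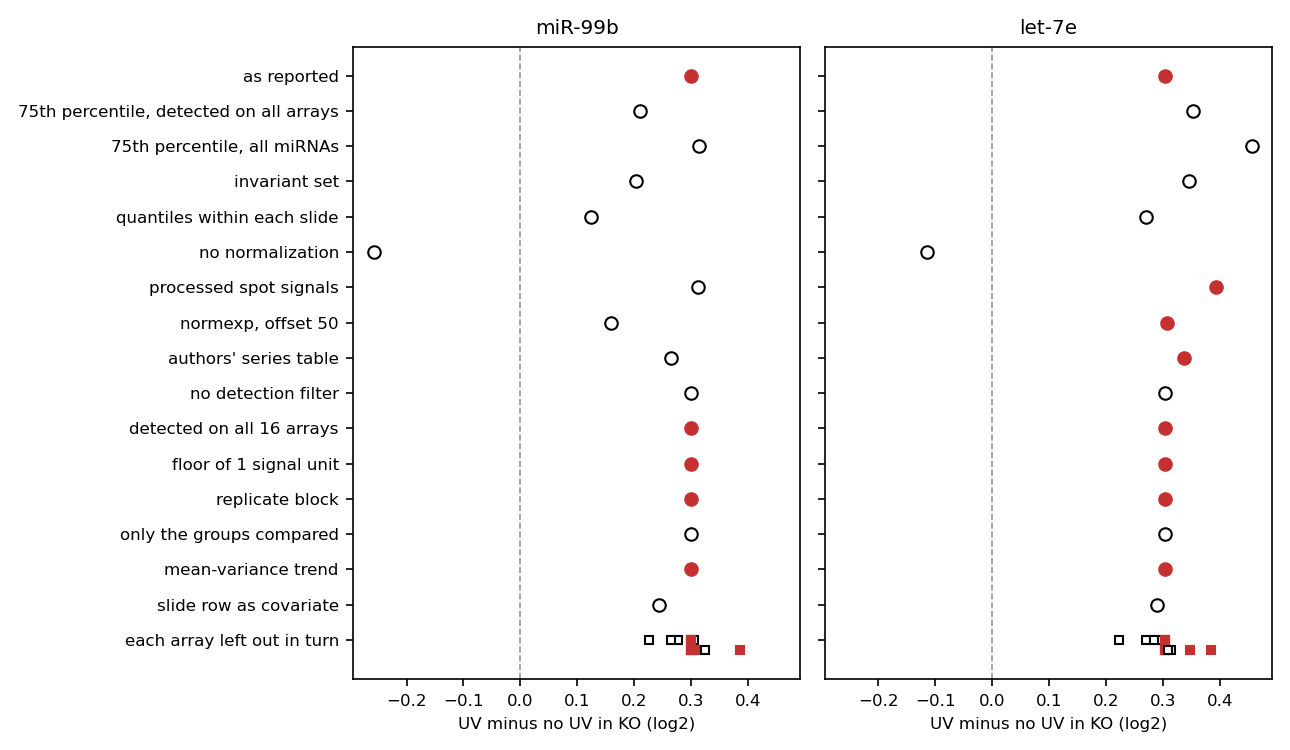
UV minus no UV in KO skin (log2 difference) for miR-99b and let-7e under each way of processing the data; circles are single settings, squares leave out 1 array each, and filled symbols passed the call at an adjusted p under 0.05. Both differences stayed positive except with no normalization, at -0.26 and -0.12, and the calls came and went between settings.

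Across arrays these cluster neighbours varied together. After each slide was centred on its own mean, miR-99b and miR-125a-5p correlated at r = 0.779 (Spearman's rho = 0.782, 16 arrays), and at 0.845 on the irradiated and 0.721 on the other slide. Of the 162 mouse miRNAs outside the families that were detected on all arrays, 0 correlated more closely with miR-99b, but miR-182 was closer to miR-125a-5p (r = 0.836). Without WT UV replicate 2 and KO no UV replicate 4, the arrays farthest from the median of miR-99b, r was 0.606 over 14 arrays. Let-7e correlated with miR-99b at 0.593, below the 3 outside miRNAs most like miR-99b (0.720 to 0.734), and with miR-125a-5p at 0.633. For comparison, the pairs among those 162 miRNAs had a median r of 0.004, with the middle 50% from -0.275 to 0.288. These correlations are descriptions, and the arrays share slides, group differences and the steps of the rank-based normalization.

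**Figure D3:**
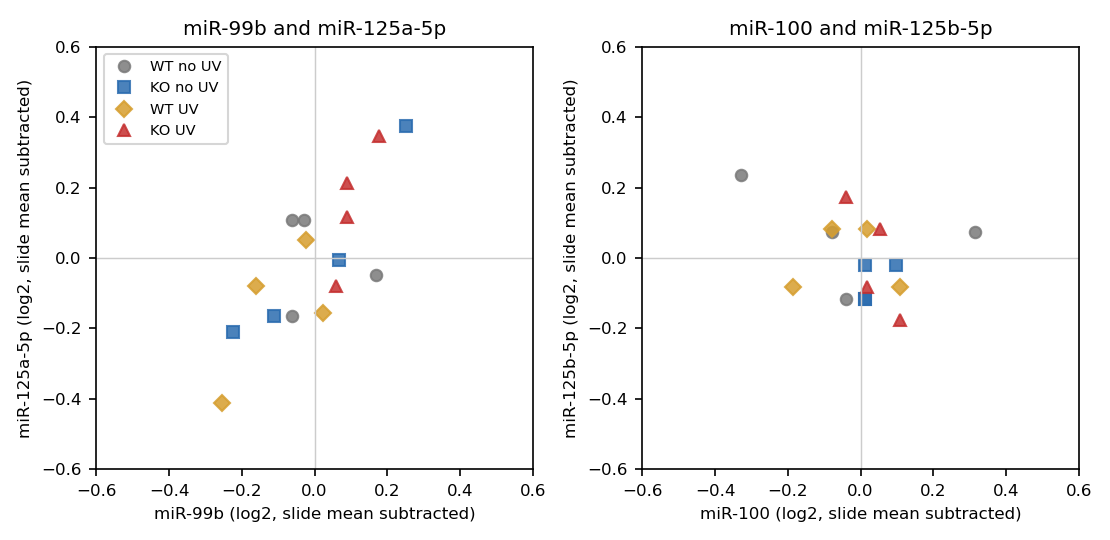
Normalized signals (log2, with the mean of each slide subtracted) on 16 arrays, marked by group: miR-99b against miR-125a-5p of the 0.69 kb cluster, and miR-100 against miR-125b-5p of the 50.58 kb cluster. The first pair rises together (r = 0.779) and the second does not (r = -0.333).

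Correlations within the 2 longer clusters were lower. MiR-99a correlated with let-7c at -0.319 and with miR-125b-5p at -0.139, and miR-100 with let-7a at 0.215 and with miR-125b-5p at -0.333. Let-7c and let-7a correlated with miR-125b-5p at 0.338 and 0.330, and at 0.502 and 0.518 on the non-irradiated slide but -0.027 and 0.032 on the irradiated one. The slides also differed for miR-99a and let-7c, with r = 0.495 on the irradiated and -0.557 on the other slide. The array cannot assign let-7a, let-7c or miR-125b-5p to a single gene, so a cluster's own product is seen directly only for miR-99a and miR-100. Those 2 correlated at 0.439 with each other. How far probes for sequences 1 base apart can tell them apart was not tested.

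MiR-125b-5p had the smallest pooled SD of the 5 members. Without UV it read 12.28, 12.09, 12.28 and 12.44 in WT and 12.09, 12.09, 12.18 and 12.18 in KO. After UV it read 12.44, 12.28, 12.44 and 12.28 in WT and 12.18, 12.44, 12.53 and 12.28 in KO. Quantile normalization hands out values by rank, so these 16 arrays held only 5 distinct values, and the group SDs are affected by ties. The KO no UV arrays were on the low side. UV minus no UV in KO was 0.22 (interval 0.04 to 0.40), at a limma adjusted p of 0.0608 and an exact permutation p of 0.0857, which failed the test. It passed without KO UV replicate 1 (0.28, limma adjusted p = 0.0401) or WT no UV replicate 2 (adjusted p = 0.0419). Scaled to the 75th percentile, which leaves no ties, the means without UV were 4760 ± 365 units in WT and 4718 ± 560 in KO (SD, n = 4 arrays each). After UV they were 4777 ± 310 and 5010 ± 419 units, and the difference in KO shrank to 0.09 (limma adjusted p = 0.521).

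In the other contrasts the interval of miR-125b-5p included 0. KO minus WT was -0.14 without UV (interval -0.31 to 0.04) and 0.00 after it (interval -0.18 to 0.18). The UV difference in WT was 0.09 (interval -0.09 to 0.27), and the interaction was -0.13 (interval -0.39 to 0.12). None of these 4 passed in limma, with adjusted p-values from 0.459 to 1.

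MiR-99a read 10.61, 10.73, 10.36 and 10.33 in WT and 10.29, 10.65, 10.61 and 10.57 in KO without UV. The irradiated arrays gave 10.53, 10.41, 10.47 and 10.47 in WT and 10.61, 10.65, 10.53 and 10.22 in KO. The 4 groups overlapped, and their means lay between 10.47 and 10.53. KO minus WT was 0.02 without UV and 0.03 after it, and UV minus no UV was -0.04 in WT and -0.03 in KO. The lowest bound of their 95% intervals was -0.28 and the highest 0.28, and the limma adjusted p-values were 0.858 to 1. Every one of these 4 signs flipped under some other processing.

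MiR-100, which differs from miR-99a by that single base, read 9.27, 8.91, 8.88 and 8.62 in WT no UV and 8.97, 8.97, 9.05 and 8.97 in KO no UV. After UV the arrays gave 8.88, 8.67, 8.78 and 8.97 in WT and 8.97, 8.91, 8.82 and 8.88 in KO. The irradiated arrays were slightly lower in both genotypes, by -0.10 in WT (interval -0.32 to 0.13) and -0.09 in KO (interval -0.32 to 0.13), with limma adjusted p-values of 0.572 and 0.520. In KO 13 of 16 pairs of arrays were lower after UV and 3 were tied (exact permutation p = 0.114). With quantiles taken within each slide, the difference in KO was -0.28 at a limma adjusted p of 0.0499, just past the call. KO minus WT was 0.07 both without and with UV, and the interaction was 0.00 (interval -0.32 to 0.32).

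Over the whole design 1 of 25 differences was called. With limma 0 of the 5 members were called between genotypes without UV, where 0% of the 228 miRNAs passed. An unadjusted p under 0.05 was reached there by 36 miRNAs and 0 members. After UV 0 of 5 were called between genotypes against 2.19% of all, and 2 members, miR-99b and miR-125a-5p, had an unadjusted p under 0.05, as did 21 of the 228 miRNAs. The UV contrast in WT gave 0 of 5 against 16.2% of all, with 0 members and 75 of all 228 at an unadjusted p under 0.05. UV in KO had 2 members, miR-99b and miR-125b-5p, and 94 of all 228 at that level. The interaction gave 0 of 5 against 2.19%, with 0 members and 29 of all 228 at an unadjusted p under 0.05. With slide row as a covariate, KO minus WT after UV became 0.14 for miR-99a, 0.22 for miR-100 and -0.14 for miR-125b-5p, each at a limma adjusted p of 1. The members' median absolute difference was 0.02, 0.07, 0.09, 0.14 and 0.13 in the contrasts between genotypes without and with UV, of UV in WT and in KO, and of the interaction. Over all 228 tested miRNAs it was 0.13, 0.11, 0.20, 0.26 and 0.18 in the same order. The outermost bound of any member's interval was 1.24-fold between genotypes without UV, 1.51-fold with UV, 1.37-fold for UV in WT, 1.42-fold for UV in KO and 1.65-fold for the interaction.

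**Figure D4:**
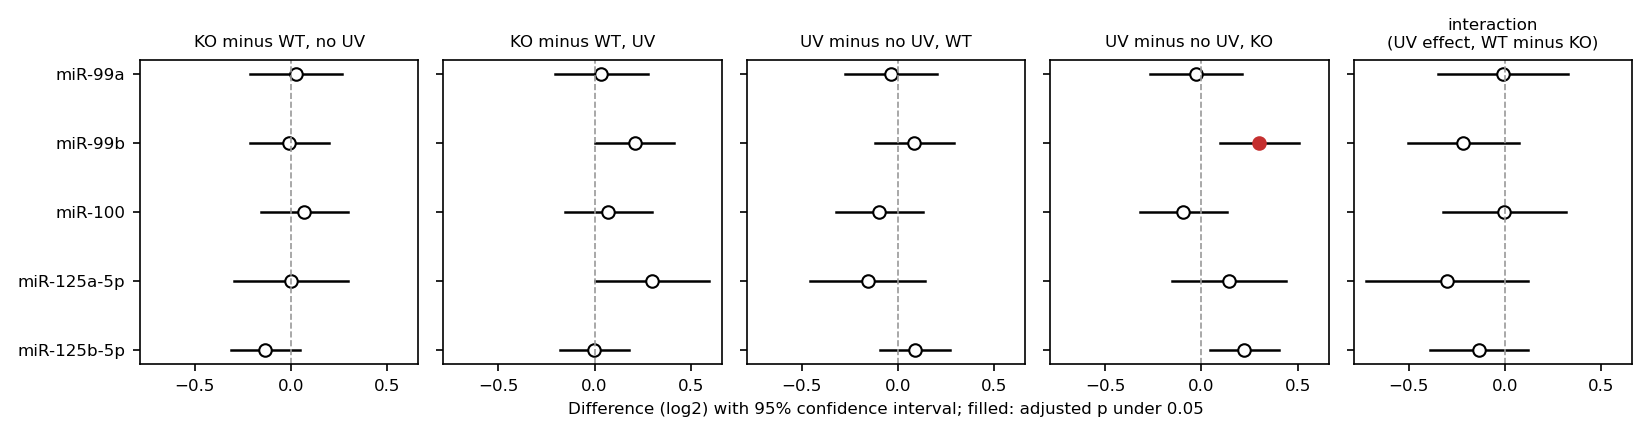
Differences (log2) of the 5 members in the 5 contrasts, with 95% confidence intervals from the limma fit; the filled point passed the call at an adjusted p under 0.05. The UV difference of miR-99b in KO, 0.30, is the single filled point, and 21 of the 25 intervals include 0.

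The 2 probes of miR-99b, and those of miR-125a-5p, gave like differences between genotypes after UV and less alike ones for UV. The probes of miR-99b covered 15 and 16 bases (mm9, chromosome 17, 17967165 to 17967179 and 17967164 to 17967179 in the file annotation). Taken alone and scaled to the 75th percentile, they gave KO minus WT after UV as 0.25 and 0.24 (log2), and UV minus no UV in KO as 0.10 and 0.26. The 18-base and 19-base probes of miR-125a-5p gave 0.33 and 0.33 for the first and -0.08 and 0.11 for the second. For miR-125b-5p the 16-base and 17-base probes disagreed in sign on the UV difference, at -0.29 and 0.04 in WT and -0.23 and 0.13 in KO, and the longer one carried 86.0% to 91.2% of the signal. For miR-100 both probes gave UV differences below 0 in both genotypes, between -0.30 and -0.18.

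Let-7a and let-7c, the partners in the 2 longer clusters, had group means of 13.09 to 13.21 and 13.28 to 13.42, and neither was called in any contrast. Of the opposite strands of the members and partners, 6 were on the array, and they were mostly faint. MiR-125b*, miR-125b-3p and let-7c-1* were detected on 0 of 16 arrays, as was miR-351. MiR-99b* was detected on 2 of 4 WT no UV and 4 of 4 KO no UV arrays and on 0 of 8 irradiated arrays, at unnormalized signals of up to 24.5 units. Let-7c-2* was detected on 9 of 16 arrays, with unnormalized signals of at most 12.9 units. The negative control spots varied by an SD of 4.14 to 6.91 units on the non-irradiated slide and 9.76 to 11.6 on the irradiated one, so the absence of detection after UV does not show a loss.

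MiR-125a-3p, the opposite strand of the miR-125a hairpin, was the exception and was detected on all 16 arrays. Its log2 signals without UV spread widely, at 6.66, 7.27, 8.44 and 6.89 in WT and 8.50, 7.05, 7.80 and 7.18 in KO. After UV they were 7.13, 6.63, 7.59 and 6.73 in WT and 6.30, 6.40, 6.73 and 7.41 in KO. UV minus no UV in KO was -0.93 (interval -1.84 to -0.01), with 14 of 16 pairs of arrays in that direction, and failed the test (limma adjusted p = 0.114, exact permutation p = 0.0857). It did not follow its guide strand across arrays, with r = -0.095 to miR-125a-5p after centring. Of the 9 partners and opposite strands on the array, 6 were tested. Let-7c-2* lay at the floor in every group, which fixed its differences at 0, and miR-99b* did so on all irradiated arrays. Among the 25 differences of the other 5, that of let-7e for UV in KO was called, in the contrast where 29.8% of all tested miRNAs were.

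Outside the families, the miRNAs most like each member over 16 slide-centred arrays were these, with no p-value since they were picked for likeness. MiR-99a was closest to miR-152 (r = 0.731), miR-22 (0.726) and miR-872 (0.703). MiR-99b was closest to miR-182 (0.734), miR-93 (0.726) and miR-92a (0.720), and miR-125a-5p to miR-182 (0.836), miR-93 (0.655) and miR-205 (0.654), so the cluster neighbours shared 2 of 3. MiR-100 was closest to let-7d (0.590), miR-92a (0.573) and miR-185 (0.528), and miR-125b-5p to miR-155 (0.687), miR-21 (0.600) and miR-140* (0.567). On the irradiated slide alone the values for let-7d and miR-140* fell to 0.084 and 0.135.

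Markers of cell types also differed between the groups that the call of miR-99b compares. The summed normalized signal of the 7 keratinocyte miRNAs was 22220 to 27760 units in KO no UV and 29320 to 43030 in KO UV. Called higher were 6 of the 7, against 18.4% of all 228 tested miRNAs. The 4 skeletal muscle miRNAs (miR-1, miR-133a, miR-133b and miR-206) summed to 40650 to 50330 units in KO no UV and 19460 to 24490 in KO UV. In that contrast 4 of 4 were called lower. In WT their sums were 20450 to 41170 units without UV and 21900 to 25990 after it, so KO no UV had the highest mean sum. All members of both lists were detected in every group. Between KO UV and WT UV 0 miRNAs of either list were called, against 2.19% of all tested miRNAs. Keratinocyte sums were 26080 to 31710 units in WT UV. For UV in WT, where miR-99b was not called, 4 keratinocyte miRNAs were called higher and 0 muscle miRNAs were called. Of all tested miRNAs 16.2% were called there. Both UV contrasts also compare 1 slide with the other. The other lists moved less evenly with UV in KO, where 29.8% of all tested miRNAs were called in either direction. Called higher and lower were 1 and 1 leukocyte, 1 and 2 fibroblast and vessel, and 0 and 1 erythrocyte miRNAs. The part of tissue composition in the difference of miR-99b was not tested.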

How the data were processed

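Total RNA of each skin sample (100 ng, Cy3-labelled per the labels) was hybridised to 1 single-colour Agilent miRNA array. Per the file headers the deposited scanner files hold intensity on a linear scale, background-subtracted and summed over a miRNA's spots by Agilent Feature Extraction 9.5.3.1, without normalization between arrays. The authors also deposited a series table of log2 values, which they had normalized by an invariant set and by quantiles, and it served as an alternative.

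Total gene signals of 16 arrays were quantile normalized (limma 3.58.1, R 4.3.3), floored at 19.4 units and taken to log2. The 228 miRNAs that 1 group or more detected on each of its 4 arrays were tested in 1 group-means model (lmFit, eBayes). A call is an adjusted p under 0.05, by Benjamini and Hochberg's procedure over the 228. Exact permutation tests were two-sided. The number of arrays limits the precision. Per the methods a group held 4 animals.

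The members and lists were chosen with earlier results of these data known. Named were the 5 members, their let-7 partners and opposite strands, array miRNAs with a member's seed, and per member the 3 most alike. Alternatives changed the normalization, signal, filter, floor, model, threshold and arrays; those for partners were added later. Same-numbered arrays were checked for shared deviations: over miRNAs these correlated at 0.132 to 0.32 for WT no UV and WT UV, all 4 pairs above 0.1, but not in the other 3 pairs of groups that were compared. KO no UV and WT UV, which were not compared, also had all 4 above 0.1 (0.172 to 0.378), and the labels give no pairing. The scanner files gave no unmapped sample columns.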

Additional observations from a re-analysis of the deposited data

Results flagged for a closer look

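A value far from the other 3 of its group was looked for in 20 groups of 4 arrays, with Dixon's test at the 95% level, which flags about 1 group in 20 by chance. It marked 2 arrays. MiR-99b in WT no UV replicate 1 was 7.55 (log2), above 7.32 to 7.35 on the other 3, where replicates 2 and 4 were tied by rank. Scaled to the 75th percentile, WT no UV replicates 1 to 4 gave 185, 189, 176 and 173 units, so replicate 1 did not stand out. MiR-100 in KO no UV replicate 3 was 9.05, where the other 3 were tied at 8.97 by the rank-based normalization. Without the first array the UV difference of miR-99b in WT was 0.14 (limma adjusted p = 0.366), and without the second KO minus WT of miR-100 without UV was 0.05. For none of the 5 members did the UV effect differ between genotypes at an adjusted p under 0.05.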

How the results depend on the processing

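Of 820 recomputed differences of the 5 members, 705 kept their sign and their side of the threshold. Most of the 89 that changed sign were near 0, and the cause was not tested. In many of the 820 the difference could not change, only its adjusted p. Between 2 groups, leaving out an array of another group gave the same difference. So did settings that changed only the filter, floor, replicate block, spread estimate, threshold or test. The count is thus not a measure of robustness. Array number and, for opposite strands, signal near background limit what could be seen. No normalization moved the median of all tested miRNAs by 0.52 for KO minus WT without UV and -0.25 with UV. The shift was 0.21 for UV in WT, -0.48 for UV in KO and 0.77 for the interaction. With that setting 5 members were called between genotypes without UV, 3 for UV in KO and 3 in the interaction. Of all 228 tested miRNAs, 111, 130 and 138 were called in the same contrasts. KO minus WT without UV was then 0.48 for miR-99b, 0.54 for miR-125a-5p and 0.52 for miR-125b-5p, and with UV -0.30 for miR-99a, -0.066 for miR-99b, -0.23 for miR-100 and -0.05 for let-7e. UV in WT was 0.33 for miR-99a, 0.19 for miR-100 and 0.11 for miR-125a-5p, and in KO -0.26 for miR-99b, -0.41 for miR-125a-5p, -0.38 for miR-125b-5p and -0.12 for let-7e. The interaction was 0.84 for miR-99a, 0.54 for miR-99b, 0.85 for miR-100, 0.52 for miR-125a-5p and 0.77 for miR-125b-5p.

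The single member called for UV in KO became 0 with both 75th-percentile scalings, the invariant set, processed spot signals, normexp, the authors' series table, no detection filter, only the groups compared, slide row as a covariate, the methods' threshold and the exact test, and 0 to 2 with an array left out. With quantiles within each slide the count was 1 as well, but of miR-100 instead of miR-99b. The exact test, unadjusted, gave 1 member for KO minus WT after UV. With the replicate number as a block the counts were 0, 0, 0, 1 and 0 over the contrasts, as without it, and it changed no other call of a member; same-numbered arrays correlated at -0.348 to 0.378 in their deviations. The 1 call among partners and opposite strands became 0 with both 75th-percentile scalings, the invariant set, only the groups compared and slide row. It became 2 with quantiles within each slide and normexp, and 3 with processed spot signals, the authors' table and a floor of 1 unit. The count was 13 with no filter and 14 with no normalization, and 0 to 1 with an array left out. With no filter, 359, 410 and 366 of all 577 miRNAs were called for KO minus WT with UV, UV in WT and the interaction.

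Other signs changed as follows. With the 75th percentile taken over all miRNAs, miR-99a gave -0.0022 and -0.017 for KO minus WT without and with UV, 0.073 and 0.058 for UV in WT and KO and 0.015 for the interaction, miR-125b-5p 0.035 for KO minus WT with UV, and miR-100 0.023 for the interaction. Scaled over miRNAs detected on all arrays, miR-125a-5p gave 0.0002 (KO minus WT, no UV), miR-125b-5p 0.067 (KO minus WT, UV) and miR-99b -0.10 (UV in WT). The invariant set gave -0.13 for miR-99a and -0.057 for miR-100 without UV and -0.054 for miR-99a with UV (KO minus WT), and -0.17 for miR-99b and -0.068 for miR-125b-5p (UV in WT). Quantiles within each slide gave -0.11 for miR-99b and -0.15 for miR-125b-5p (UV in WT), -0.016 for miR-125a-5p (UV in KO) and 0.012 for miR-99a (interaction). Processed spot signals gave 0.061 for miR-99b and 0.0062 for miR-125a-5p without UV, -0.19 for miR-99a and 0.041 for miR-125b-5p with UV (KO minus WT), 0.013 for miR-99a and -0.087 for miR-125b-5p (UV in WT) and 0.21 for miR-99a (interaction). Normexp gave -0.0070 for miR-99a and 0.027 for miR-99b without UV, -0.0036 for miR-99a and 0.069 for miR-125b-5p with UV, and -0.13 for miR-125b-5p (UV in WT). The authors' table gave 0.011 for miR-125a-5p without UV, 0.0003 for miR-125b-5p with UV and 0.0010 for miR-99a (interaction). With slide row, miR-99a was 0.025 (UV in KO) and miR-125b-5p 0.0008 (interaction). With an array left out, KO minus WT without UV ranged from -0.035 to 0.10 for miR-99a, -0.094 to 0.065 for miR-99b, -0.031 to 0.18 for miR-100 and -0.13 to 0.068 for miR-125a-5p, and with UV from -0.016 to 0.13 for miR-99a and -0.059 to 0.058 for miR-125b-5p. UV in WT ranged from -0.097 to 0.036 for miR-99a and -0.20 to 0.019 for miR-100, UV in KO from -0.11 to 0.066 for miR-99a, and the interaction from -0.10 to 0.069 for miR-99a and -0.10 to 0.11 for miR-100.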
